A study of Mus musculus with 14 samples.

Results

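The genes described here are 10 transcription factors of the core and naive pluripotency network, *Pou5f1*, *Sox2*, *Nanog*, *Sall4*, *Esrrb*, *Tfcp2l1*, *Tbx3*, *Prdm14*, *Nr0b1* and *Nr5a2*, taken by symbol out of 54446 gene identifiers. RNA-seq was done in 14 libraries of E14, a mouse embryonic stem (ES) cell line grown without feeder cells in serum and LIF. The treatment was INK128, which blocks the mTOR kinase (mTORi) and was used to bring ES cells into a dormant state. Wild-type cells were taken at 0, 24, 72 and 144 h. Cells labelled *Tet1/2* DKO, a double knockout of the DNA demethylases TET1 and TET2, were taken at the first 3 of these times. Each of the 7 groups holds 2 replicates. The *Tet1/2* DKO cells are 1 line made with Cas9, so the genotype and the line cannot be told apart, and the 0 h groups of both genotypes received no mTORi. The values are TPM, a transcript abundance per length that was scaled to the same total in every library, so levels may be compared between genes. The question was how the factors that hold ES cells in pluripotency behaved during entry into dormancy, and whether this differed in the *Tet1/2* DKO cells.

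OCT4 (encoded by *Pou5f1*), SOX2 and NANOG bind enhancers together and keep each other's genes and those of the wider network active. SALL4 works with them. ESRRB, TFCP2L1, TBX3 and PRDM14 belong to the naive circuit of the preimplantation epiblast, which responds to LIF and WNT signals and is dismantled when cells leave naive pluripotency. NR5A2 and NR0B1 are nuclear receptor proteins of the same network. NR5A2 activates *Pou5f1*, and NR0B1 (DAX1) binds OCT4 and NR5A2 and can repress their targets.

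The promoters of *Nanog*, *Sox2* and *Pou5f1*, RefSeq promoters on GRCm38.p6 that run from 250 bases before to 50 bases after a transcript start, are printed with the matches in capitals to show the letters matched at the gene called lower and at the gene called higher at most treated times on deposited TPM, beside *Pou5f1*. The motifs searched on both strands were an octamer part bound by POU factors, a composite of that octamer part followed by a SOX element (which therefore overlaps it), a nuclear receptor half-site and a GC box. The windows, all on the plus strand, were chr6:122707239-122707538 for *Nanog*, chr3:34649745-34650044 for *Sox2* and chr17:35505782-35506081 for *Pou5f1*.
Nanog: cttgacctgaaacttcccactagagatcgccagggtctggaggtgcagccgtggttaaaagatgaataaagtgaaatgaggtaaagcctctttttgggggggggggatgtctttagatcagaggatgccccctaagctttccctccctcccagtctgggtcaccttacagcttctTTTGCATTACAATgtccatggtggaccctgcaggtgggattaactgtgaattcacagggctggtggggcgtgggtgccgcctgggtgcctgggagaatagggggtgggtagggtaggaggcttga
Sox2: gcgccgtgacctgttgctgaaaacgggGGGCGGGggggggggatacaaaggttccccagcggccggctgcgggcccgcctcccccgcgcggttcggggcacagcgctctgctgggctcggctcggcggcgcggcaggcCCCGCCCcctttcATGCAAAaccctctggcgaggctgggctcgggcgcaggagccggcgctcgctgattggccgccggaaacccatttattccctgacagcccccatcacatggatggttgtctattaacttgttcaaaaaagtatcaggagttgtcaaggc
Pou5f1: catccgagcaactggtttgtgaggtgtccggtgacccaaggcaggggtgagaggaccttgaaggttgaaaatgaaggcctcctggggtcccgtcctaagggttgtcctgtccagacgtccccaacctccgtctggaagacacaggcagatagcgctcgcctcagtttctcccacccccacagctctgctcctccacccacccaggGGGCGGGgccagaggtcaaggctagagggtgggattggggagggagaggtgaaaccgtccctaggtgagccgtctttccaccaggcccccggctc

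The *Nanog* promoter held the composite, searched as TTTGCATNACAAT, beginning 75 bases before the start. This motif was present in 8 of 32851 promoters of the same length, or 0.0244%. The *Sox2* promoter held the octamer part alone (searched as TTTGCAT) on the opposite strand, 99 bases before the start, together with GC boxes (searched as GGGCGGG) that begin 112 and 223 bases before it. The octamer part occurred in 4.63% of all promoters, the GC box in 25.6% and the half-site (searched as AAGGTCA) in 4.72%. The *Pou5f1* promoter printed held a GC box 45 bases before its start. A second entry of *Pou5f1* held none of the motifs, and a second entry of *Nanog*, which overlaps the printed one, held the same composite 151 bases before its own start. Of the 10 genes, 7 had an entry, with 11 promoters in all, and the entries of *Esrrb*, *Tfcp2l1*, *Nr5a2* and *Nr0b1* held none of these letters in the window. These matches are a description of the letters and not of bound sites.

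All 10 genes passed the filter of a mean of 1 TPM that left 15878 genes for testing, and they spanned a wide range of levels. *Pou5f1* was the highest in all 14 libraries, with a lowest value of 792, a median of 953 and a highest value of 1057 TPM. *Prdm14* was the lowest in all 14 libraries, with values between 5.77 and 14.1 TPM. *Sall4* (median 314.5 TPM), *Sox2* (287 TPM), *Esrrb* (282 TPM) and *Nanog* (230.1 TPM) followed *Pou5f1* and exchanged places among themselves, since each was above the next in 10 of 14 libraries. *Tbx3* (106.5 TPM) and *Tfcp2l1* (103 TPM) formed the next tier and were ordered in this way in 8 of 14 libraries. *Nr0b1* (65.3 TPM) was above *Nr5a2* (59.65 TPM) in 10 of 14 libraries. The steps from *Pou5f1* to *Sall4*, from *Nanog* to *Tbx3*, from *Tfcp2l1* to *Nr0b1* and from *Nr5a2* to *Prdm14* held in all 14 libraries. *Tbx3* was below *Nr0b1* only in wild-type 72 h replicate 1 (82.5 against 89.0 TPM). The 10 genes together made up 0.200% to 0.284% of the TPM of a library.

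*Pou5f1* and *Sall4* varied least. The highest library of *Pou5f1* was 1.33 times its lowest, and for *Sall4* the ratio was 1.42. The genes with the widest range were *Tbx3* (2.87), *Nr0b1* (2.87) and *Nanog* (2.76). The levels of all 10 genes are shown by library in the plot of TPM against genotype and time.

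**Figure D1:**
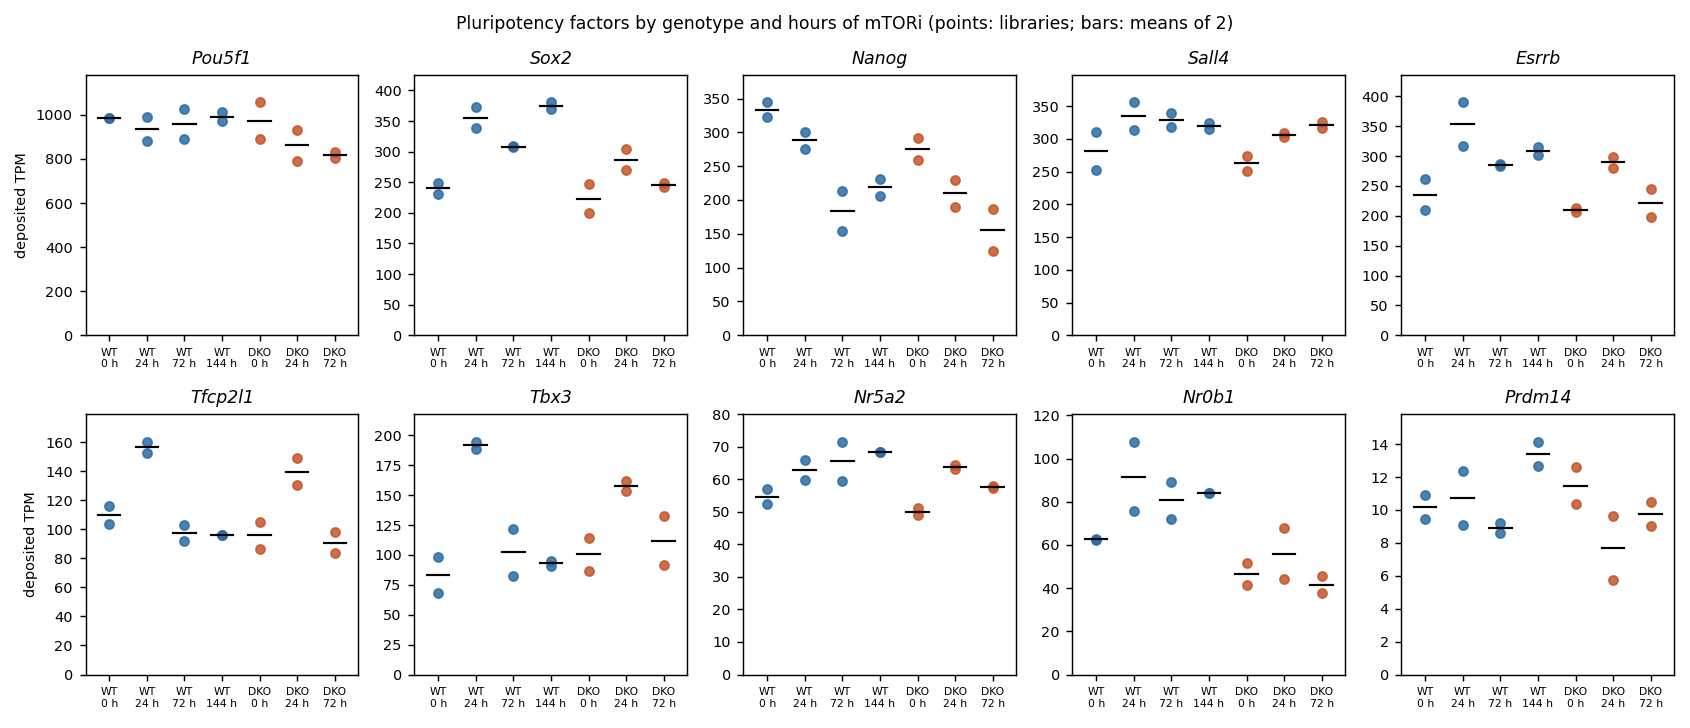
Deposited TPM (vertical axis, linear from 0) of the 10 factors in the 7 groups (horizontal axis), with 1 point for each library and a bar at the mean of the 2 libraries of a group. *Pou5f1* stays between 792 and 1057 TPM, *Tbx3* and *Tfcp2l1* stand highest at 24 h in both genotypes, the mean of *Nanog* is lowest at 72 h, and *Nr0b1* lies lower in the DKO libraries than in the wild-type libraries at the same time.

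Neighbouring transcripts were low beside the factors. *Pou5f1* (chr17:35506018-35510772 in mm10) overlaps the antisense gene *Gm19553*, which had a mean of 1.83 TPM, and *Sox2* (chr3:34650405-34652461) lies within *Sox2ot* on the same strand, with 7.33 TPM. *Tbx3* (chr5:119670669-119684724) overlaps the antisense *Tbx3os1* (3.16 TPM). *Nanog* (chr6:122707489-122714633) has a processed copy, *Nanog-ps1*, which reached at most 1.26 TPM. Whether reads were shared between these pairs cannot be seen in TPM.

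Beyond the factors themselves, 3 properties of the libraries bear on the results. *Tet2* was 96.0 and 99.7 TPM in the wild-type 0 h libraries and 19.1 and 22.2 TPM in those labelled DKO, and it was lower in DKO at all 3 times (log2 fold change −2.19 to −2.59, limma adjusted p at most 0.0001). *Tet1* was 191 and 197 TPM at 0 h in wild-type cells and 147 and 152 TPM in DKO, so its gene-level TPM, which do not resolve the exons between the guides, gave only a weak check of the label (log2 fold change −0.38, adjusted p = 0.079 at 0 h, −0.51, adjusted p = 0.023 at 24 h and −0.31, adjusted p = 0.068 at 72 h). On the spike-in scale described next the *Tet1* differences were −0.08, −0.42 and 0.11, and none was called. The RNA came from a fixed number of cells with ERCC spike-in RNA added, and the study scaled its TPM to the spike-in RNA by 1 factor per library. On that scale all genes had a median log2 fold change against 0 h of −0.34, −0.35 and −0.88 at the 3 treated times of wild-type cells and −0.51 and −0.15 at both treated times of DKO, whereas the medians on deposited TPM were −0.001, 0.04, 0.06, 0.003 and 0.13. The spike-in medians rested in part on single libraries. The median at wild-type 24 h was −0.15 without 24 h replicate 1 and −0.53 without replicate 2, and at DKO 24 h it was −0.89 and −0.15. At DKO 72 h it was −0.43 and 0.13 without the 72 h replicates in the same order, and −0.03 and −0.27 without those at 0 h. At wild-type 72 and 144 h no library moved it by as much, with ranges of −0.42 to −0.29 and −0.94 to −0.82. The deposited scale reads a factor against the rest of its library. The spike-in scale reads it per cell only if the spike-in RNA was added in proportion to cells, and the paper does not state the step at which it was added. In bulk RNA, fewer cells that express a gene and less RNA per cell cannot be told apart.

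In wild-type cells at 24 h, *Sox2*, *Esrrb*, *Tfcp2l1* and *Tbx3* rose relative to the rest of the transcriptome, whereas *Pou5f1* and *Nanog* did not pass the test. By limma with Benjamini-Hochberg adjustment over all genes, 4 of 10 factors were called at an adjusted p under 0.05, all of them higher. Over all genes tested 33.3% were called, 17.6% higher and 15.7% lower, so 4 of 10 compares with 17.6% for the rises. The median log2 fold change of the factors was 0.38 beside −0.001 for all genes, and 8 of 10 lay above the median gene. None of the 4 was called on spike-in normalized TPM, where 11.4% of all genes were, and the median was 0.01 beside −0.34, with 8 of 10 above the median gene.

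*Tbx3*, a T-box repressor of differentiation genes downstream of LIF, had the largest change. It was 98.6 and 67.8 TPM at 0 h and 195 and 189 TPM at 24 h. Both treated libraries were above both untreated ones (log2 fold change 1.22 ± 0.23 (SE), adjusted p = 0.0031 on deposited TPM, and 0.85 ± 0.33 with an adjusted p = 0.09 on spike-in normalized TPM). With the replicates paired within a genotype *Tbx3* was called on the spike-in scale too (adjusted p = 0.014), beside 33.2% of all genes. At 72 h *Tbx3* was at 82.5 and 122 TPM, which overlapped the untreated values, and at 144 h it was at 91.0 and 94.8 TPM, between them.

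*Esrrb*, an orphan nuclear receptor that can substitute for NANOG, was 262 and 209 TPM at 0 h and 389.9 and 317 TPM at 24 h. Its groups did not overlap (log2 fold change 0.58 ± 0.14, adjusted p = 0.0084). *Tfcp2l1*, a grainyhead-family target of LIF and STAT3, went from 116 and 104 TPM to 153 and 160.2 TPM, also without overlap (0.51 ± 0.12, adjusted p = 0.0088). At 72 h *Tfcp2l1* was at 92.0 and 103 TPM, below both untreated libraries.

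*Sox2*, the SRY-box partner of OCT4, was 231 and 248 TPM at 0 h, 338 and 372 TPM at 24 h, 308 in both libraries at 72 h, and 369 and 380.3 TPM at 144 h. All 6 treated libraries were above both untreated ones. The log2 fold change was 0.56 ± 0.11 at 24 h (adjusted p = 0.0031), 0.36 ± 0.11 at 72 h (adjusted p = 0.031) and 0.64 ± 0.11 at 144 h (adjusted p = 0.0021) on deposited TPM, but 0.19, −0.07 and −0.38 on spike-in normalized TPM, where none was called. The gene was above the median of all genes at the 3 times on either scale.

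Other genes moved at the same time. At 24 h in wild-type cells all 9 primitive endoderm regulators tested rose (median log2 fold change 2.24) beside 17.6% of all genes, and 6 of 9 did on spike-in normalized TPM beside 1.33%. Their summed level was 15.0 to 46.9 TPM at 0 h, 112 to 192 TPM at 24 h, 15.3 to 41.6 TPM at 72 h and 13.8 to 14.5 TPM at 144 h, with no gene of the list at 0 in both libraries of any of these groups. The list includes *Gata4* (2.46 ± 0.66, adjusted p = 0.016), *Gata6* (2.35 ± 0.65, adjusted p = 0.018) and *Pdgfra* (2.29 ± 0.74, adjusted p = 0.037). Their part in the rise of *Tbx3*, *Esrrb*, *Tfcp2l1* and *Sox2* was not tested. In the DKO libraries at 24 h the same sum was 35.8 to 77.7 TPM, which overlapped its 17.8 to 47.5 TPM at 0 h, and 0 of the 9 genes was called, beside 28.2% of all genes. The DKO means of *Gata4*, *Gata6* and *Pdgfra* went from 4.02, 4.34 and 3.83 TPM to 7.27, 9.33 and 8.99 TPM. When the DKO response at 24 h was tested against the wild-type response, 0 of 15878 genes were called, so these counts do not show that the responses differed.

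**Figure D2:**
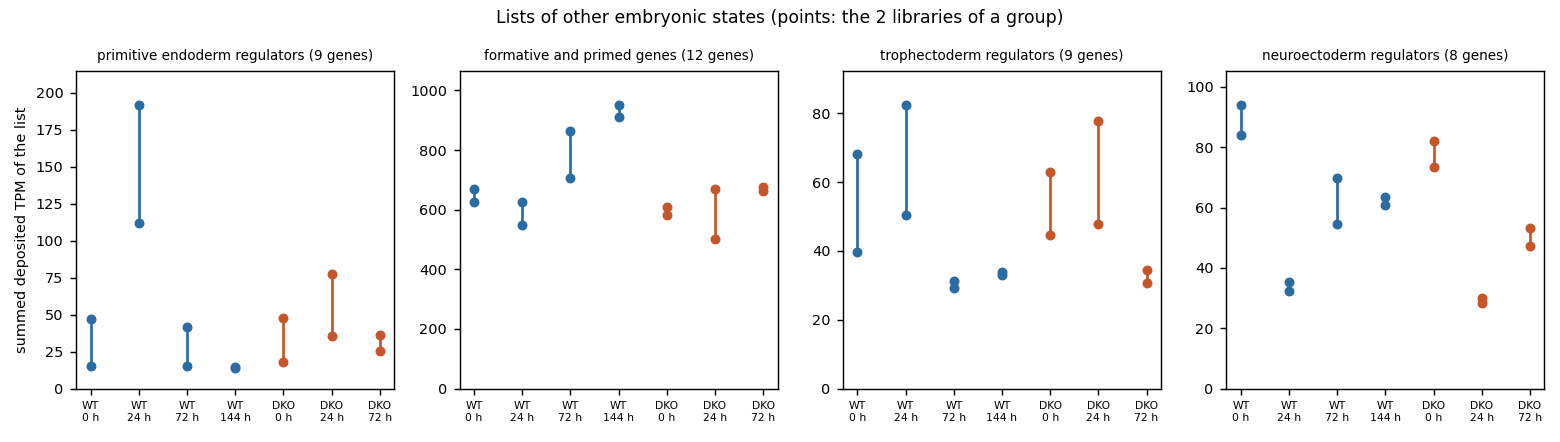
Summed deposited TPM (vertical axis, linear from 0) of 4 gene lists of other embryonic states in the 7 groups, with 1 point for each library and a line joining the 2 libraries of a group. The primitive endoderm sum is 112 to 192 TPM in wild-type cells at 24 h and at most 77.7 TPM in all other libraries, and the formative and primed sum is highest in wild-type cells at 144 h, at 912 to 952 TPM.

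The 24 h calls of *Sox2* and *Tbx3* did not depend on any 1 library. The call of *Esrrb* was lost without wild-type 0 h replicate 2 or 24 h replicate 1 (adjusted p = 0.07 for each) and with the compared groups only (adjusted p = 0.055), and that of *Tfcp2l1* without 0 h replicate 2 or 24 h replicate 2 (adjusted p 0.056 to 0.064). *Sall4* was called without 0 h replicate 2 (0.41, adjusted p = 0.027) and *Nr0b1* without 24 h replicate 2 (0.77, adjusted p = 0.047). With the replicates paired within a genotype 6 factors were called, the same 4 with *Sall4* (0.26, adjusted p = 0.042) and *Nr0b1* (0.52, adjusted p = 0.014), beside 41.1% of all genes.

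At 72 h of mTORi *Nanog* fell in wild-type cells and *Sox2* stayed above its untreated level on deposited TPM. *Nanog*, the homeodomain factor whose level fluctuates between ES cells in serum, was 322 and 344 TPM at 0 h, 275 and 301 TPM at 24 h, 154 and 214 TPM at 72 h and 207 and 230.4 TPM at 144 h. All 6 treated libraries were below both untreated ones. The 24 h values did not pass the test (−0.21 ± 0.20, adjusted p = 0.44), and *Nanog* was called lower at 72 h (−0.87 ± 0.20, adjusted p = 0.0093) and at 144 h (−0.61 ± 0.20, adjusted p = 0.04). It was also called lower at both times on spike-in normalized TPM, with −1.30 ± 0.34 (adjusted p = 0.02) and −1.63 ± 0.34 (adjusted p = 0.00082).

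At 72 h the 2 factors called, *Sox2* higher and *Nanog* lower, stood beside 27.2% of all genes called, so a share of 2 in 10 was no larger than the background. The median of the factors was 0.24 and that of all genes 0.04, with 6 of 10 factors above the median gene. All 10 log2 fold changes were below 0 on spike-in normalized TPM, and 1 factor, *Nanog*, was called beside 9.47% of all genes. *Esrrb* (0.28 ± 0.14, adjusted p = 0.15), *Nr5a2* (0.25 ± 0.10, adjusted p = 0.075) and *Sall4* (0.23 ± 0.11, adjusted p = 0.13) did not pass the test on deposited TPM. The *Nanog* call was lost without 0 h replicate 2 or 72 h replicate 1 (adjusted p 0.051 to 0.068). The *Sox2* call was lost without any 1 of the 4 libraries at 0 and 72 h (adjusted p 0.065 to 0.15). *Nr5a2* was called without 72 h replicate 2 (0.38, adjusted p = 0.032) and *Sall4* without 0 h replicate 2 (0.38, adjusted p = 0.042).

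At 144 h in wild-type cells *Sox2* and *Nr5a2* were higher and *Nanog* lower on deposited TPM, and *Pou5f1* overlapped its untreated values. *Pou5f1* was 988 TPM in both libraries at 0 h and 1011 and 974 TPM at 144 h, so the groups overlapped (log2 fold change 0.01 ± 0.12, adjusted p = 0.97). The same gene fell by 1.02 ± 0.27 on the log2 scale of spike-in normalized TPM (adjusted p = 0.0045), close to the median of all genes there, −0.88. *Nr5a2* was 52.5 and 56.9 TPM at 0 h, 65.8 and 59.8 TPM at 24 h, 71.5 and 59.4 TPM at 72 h and 68.4 and 68.2 TPM at 144 h, with all 6 treated libraries above both untreated ones. It was called higher at 144 h (0.32 ± 0.10, adjusted p = 0.03), and lower on spike-in normalized TPM (−0.70 ± 0.30, adjusted p = 0.049).

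The 3 factors called at 144 h on deposited TPM compare with 30.1% of all genes, which is the background share. The 6 called on spike-in normalized TPM, all lower, were *Pou5f1*, *Nanog*, *Tfcp2l1* (−1.21 ± 0.31, adjusted p = 0.0034), *Tbx3* (−0.84 ± 0.33, adjusted p = 0.033), *Nr5a2* and *Sall4* (−0.83 ± 0.30, adjusted p = 0.024), beside 56.7% of all genes called. *Tbx3*, *Nr5a2*, *Sall4* and *Pou5f1* had log2 fold changes above 0 on deposited TPM. On either scale 7 of 10 factors lay above the median gene. *Prdm14*, a PR-domain repressor of FGF signalling and of DNA methyltransferase genes, was 10.9 and 9.43 TPM at 0 h and 14.1 and 12.7 TPM at 144 h, without overlap but short of the threshold (0.37 ± 0.21, adjusted p = 0.21). At 24 h (9.10 and 12.4 TPM) its groups overlapped, and at 72 h its 8.63 and 9.23 TPM lay below both untreated values (−0.17 ± 0.21, adjusted p = 0.60).

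The *Sox2* call at 144 h held without any 1 of its 4 libraries, whereas those of *Nanog* (adjusted p 0.099 to 0.17) and *Nr5a2* (adjusted p 0.051 to 0.15) were lost without any 1 of the libraries at 0 and 144 h. *Esrrb* (315 and 302 TPM at 144 h, 0.40 ± 0.14, adjusted p = 0.051) was called without 0 h replicate 1 (0.56, adjusted p = 0.032). With the replicates paired within a genotype 5 factors were called, with *Esrrb* (adjusted p = 0.025) and *Nr0b1* (84.0 and 84.2 TPM, 0.42, adjusted p = 0.036) added, beside 38.8% of all genes. Between 72 and 144 h no factor was called by limma, beside 0.428% of all genes. There 2 of 10 had an unadjusted p under 0.05, *Sox2* (0.28 ± 0.11) and *Prdm14* (0.53 ± 0.21), beside 10.8% of all genes, and on spike-in normalized TPM 0 were called, beside 0.542% of all genes, and all 10 were below 0. With the replicates paired within a genotype *Tbx3* (−0.71, adjusted p = 0.046) and *Sall4* (−0.64, adjusted p = 0.041) were called lower on that scale, beside 27.8% of all genes called.

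**Figure D3:**
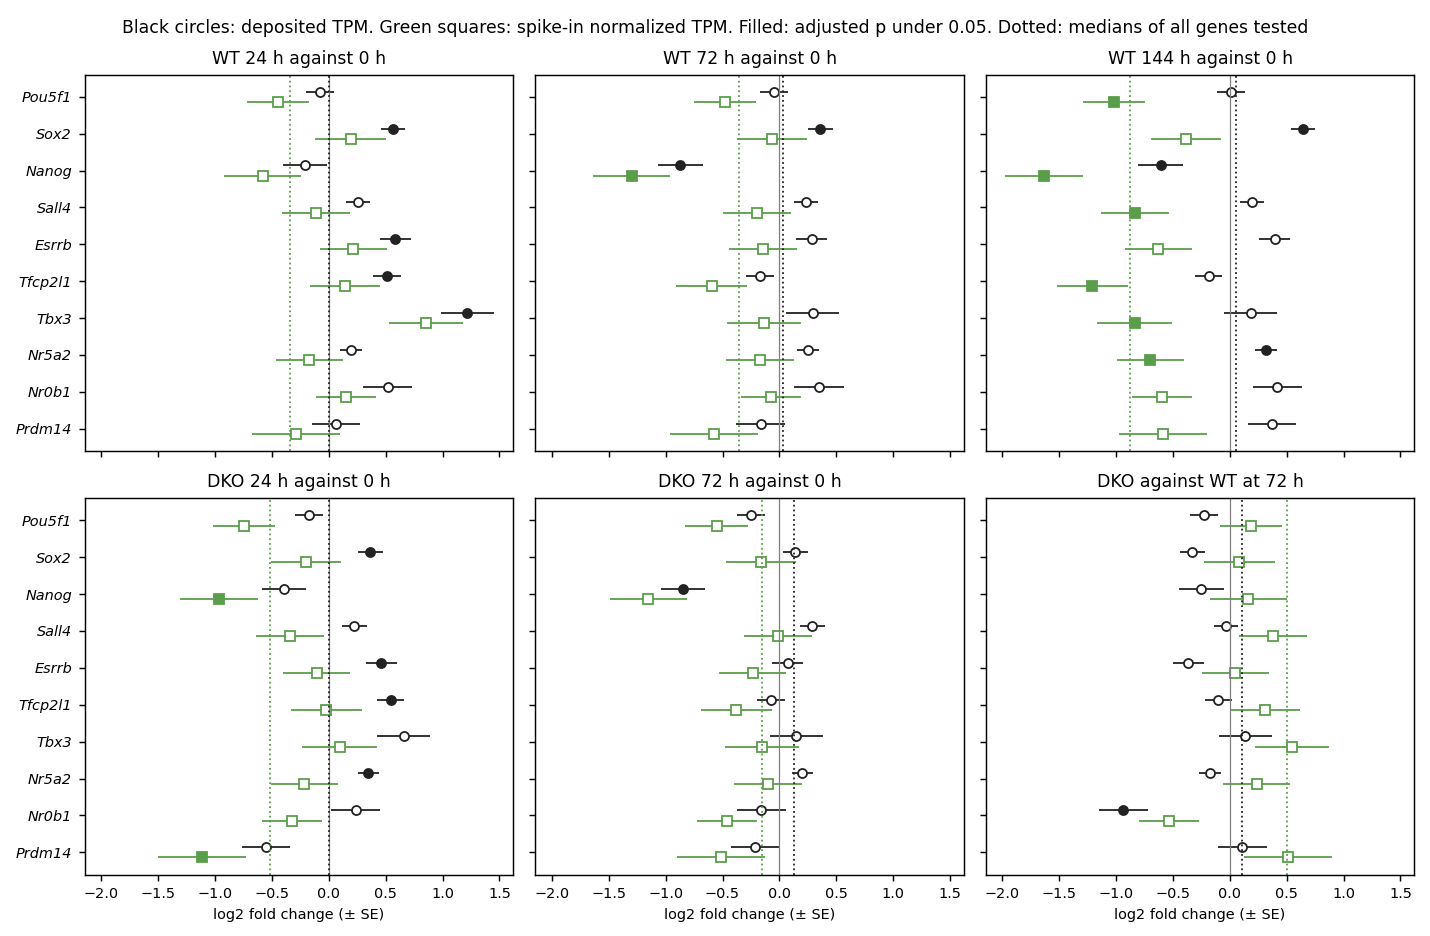
Log2 fold changes (horizontal axis, ± SE) of the 10 factors (vertical axis) in 6 comparisons, on deposited TPM (black circles) and on spike-in normalized TPM (green squares), filled where the adjusted p was under 0.05, with the medians of all genes tested as dotted lines in the same colours. The green points are shifted from the black ones by nearly the same amount for all genes of a panel, so that at 144 h all 10 lie below 0 on the spike-in scale and *Sox2* and *Nanog* keep the highest and the lowest place on both.

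In the libraries labelled DKO at 24 h, *Sox2*, *Esrrb*, *Tfcp2l1* and *Nr5a2* were higher than at 0 h on deposited TPM, 4 of 10 factors beside 28.2% of all genes called and 13.2% called higher. *Sox2* was 247 and 199.8 TPM at 0 h and 304 and 270.1 TPM at 24 h (0.37 ± 0.11, adjusted p = 0.029). *Esrrb* was 207 and 213 TPM and then 280.3 and 299 TPM (0.46 ± 0.14, adjusted p = 0.029). *Tfcp2l1* was 86.5 and 105 TPM and then 149 and 130.4 TPM (0.54 ± 0.12, adjusted p = 0.0078). The treated libraries of these 3 genes were above both untreated ones. *Nr5a2* was 51.1 and 48.9 TPM and then 64.5 and 63.2 TPM, also without overlap (0.35 ± 0.10, adjusted p = 0.021).

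*Tbx3* in the DKO libraries was 86.5 and 114.5 TPM at 0 h and 153 and 162 TPM at 24 h, which did not overlap but did not pass the test (0.66 ± 0.23, adjusted p = 0.058). The median of the factors was 0.29, with 7 of 10 above the median gene. The 4 calls were lost on spike-in normalized TPM and 9 of 10 factors were below 0, with log2 fold changes of −0.20 for *Sox2*, −0.11 for *Esrrb*, −0.02 for *Tfcp2l1* and −0.21 for *Nr5a2*. On that scale *Nanog* (−0.97 ± 0.34, adjusted p = 0.045) and *Prdm14* (−1.11 ± 0.39, adjusted p = 0.042) were called lower, beside 22.3% of all genes called. With the replicates paired within a genotype *Pou5f1* was called lower with them (−0.75, adjusted p = 0.011), beside 44.7% of all genes called.

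The calls of *Esrrb* (adjusted p 0.067 to 0.11) and *Nr5a2* (adjusted p 0.053 to 0.11) were lost without any 1 of the 4 DKO libraries at 0 and 24 h. That of *Sox2* was lost without 0 h replicate 2 or 24 h replicate 1 (adjusted p 0.16 to 0.21), and that of *Tfcp2l1* without 0 h replicate 1 or 24 h replicate 1 (adjusted p 0.056 to 0.059). *Prdm14*, at 10.4 and 12.6 TPM in DKO at 0 h and 9.65 and 5.77 TPM at 24 h, was called lower without 24 h replicate 1 (−0.88, adjusted p = 0.015).

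At 72 h in the DKO libraries *Nanog* fell, and it was the 1 factor called, beside 28.9% of all genes. It was 259 and 292 TPM at 0 h, 229.8 and 189.6 TPM at 24 h and 187 and 125 TPM at 72 h, so that every treated library was below both untreated ones (−0.85 ± 0.20, adjusted p = 0.011 at 72 h, and −1.15 ± 0.34, adjusted p = 0.059 on spike-in normalized TPM). With the replicates paired within a genotype it was called on the spike-in scale too (adjusted p = 0.0016), beside 19.7% of all genes. The 4 genes called higher at 24 h were not called at 72 h. *Sox2* was at 248 and 242 TPM (0.14 ± 0.11, adjusted p = 0.35), *Esrrb* at 245 and 198 TPM (0.07 ± 0.14, adjusted p = 0.72) and *Tfcp2l1* at 98.0 and 83.6 TPM (−0.07 ± 0.12, adjusted p = 0.68), each overlapping its untreated values. *Nr5a2* was at 57.5 and 57.9 TPM, above both untreated values of 51.1 and 48.9 TPM (0.20 ± 0.10, adjusted p = 0.13). *Tbx3* at 132 and 91.9 TPM overlapped its own untreated values.

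*Pou5f1* in DKO was 890.5 and 1057 TPM at 0 h, 792 and 931 TPM at 24 h and 803 and 831 TPM at 72 h. The 72 h values lay below both untreated ones without passing the test (−0.25 ± 0.12, adjusted p = 0.16). The median of the factors was −0.001 beside 0.13 for all genes, with 4 of 10 above the median gene, and on spike-in normalized TPM 2 of 10 were above it and 0 were called, beside 3.76% of all genes. *Sall4*, a zinc-finger partner of OCT4 and NANOG, was 274 and 250.4 TPM at 0 h and 325 and 317 TPM at 72 h (0.29 ± 0.11, adjusted p = 0.066), and it was called with the replicates paired within a genotype (adjusted p = 0.028), which made 2 calls beside 38.5% of all genes. The *Nanog* call was lost without DKO 0 h replicate 2 or 72 h replicate 2 (adjusted p 0.07 to 0.081).

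Ratios within a library do not depend on any scale of the library. *Sox2* went from 24.3% of *Pou5f1* in wild-type cells at 0 h to 38.1% at 24 h and 37.8% at 144 h, and the libraries of these groups did not overlap (23.4% to 25.2% at 0 h, 36.5% to 39.0% at 144 h). *Nanog* went the other way, from 33.7% (32.6% to 34.8%) at 0 h to 19.5% (15.0% to 24.1%) at 72 h and 22.0% (20.4% to 23.7%) at 144 h. The order of these 2 genes was therefore exchanged, with *Nanog* above *Sox2* at 0 h in both libraries and *Sox2* above *Nanog* from 24 h on. The same exchange was present in DKO, where *Nanog* was 28.4% and *Sox2* 23.3% of *Pou5f1* at 0 h and *Nanog* was 19.1% and *Sox2* 30.0% at 72 h. *Tbx3* was 8.42% of *Pou5f1* at 0 h, 20.5% at 24 h and 9.37% at 144 h in wild-type cells, and 10.3%, 18.4% and 13.8% at 0, 24 and 72 h in DKO. The ratios are given as descriptions, with no test.

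**Figure D4:**
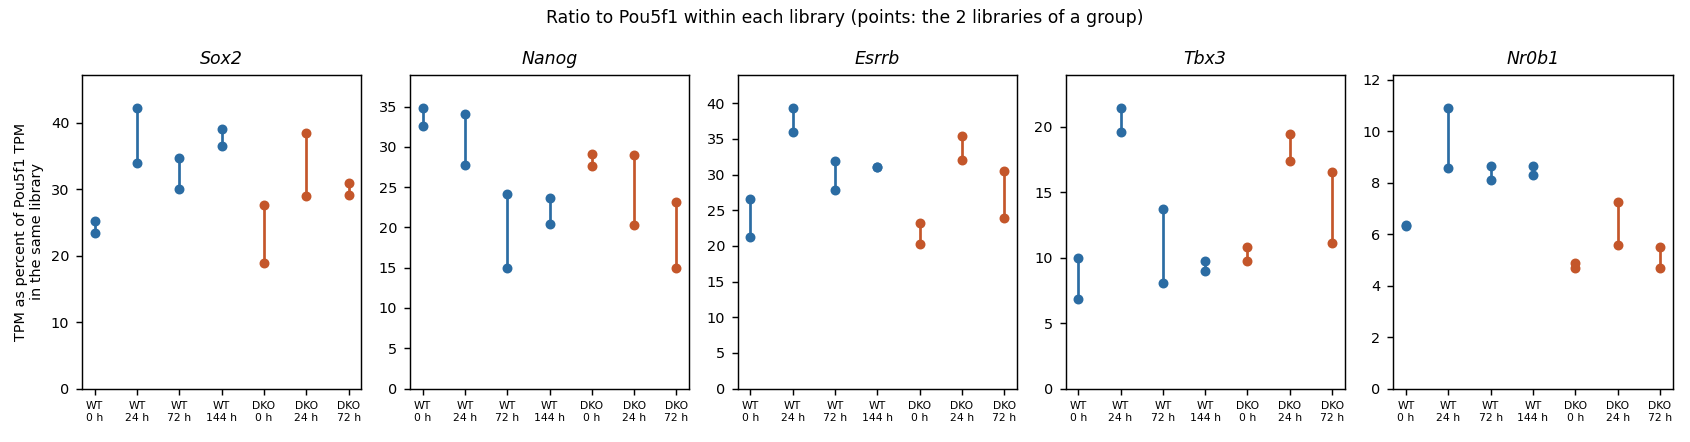
TPM of 5 factors as a percent of the *Pou5f1* TPM of the same library (vertical axis, linear from 0) in the 7 groups, with 1 point for each library and a line joining the 2 libraries of a group. In both genotypes the means of *Sox2* are higher and those of *Nanog* lower under mTORi than at 0 h, *Tbx3* is highest at 24 h, and *Nr0b1* lies at 4.68% to 7.27% in the DKO libraries and at 6.32% to 10.9% in the wild-type libraries.

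Between the genotypes, 1 factor was called at 1 time. *Nr0b1*, the X-linked gene of the orphan receptor DAX1, was 62.9 and 62.5 TPM in wild-type cells at 0 h and 41.7 and 51.5 TPM in DKO. At 24 h it was 108 and 75.5 TPM in wild-type cells and 44.2 and 67.7 TPM in DKO, and at 72 h 89.0 and 72.1 TPM against 37.6 and 45.7 TPM. The values of the genotypes did not overlap at any of the 3 times, with DKO the lower. The log2 fold change was −0.43 ± 0.22 at 0 h (adjusted p = 0.39), −0.71 ± 0.22 at 24 h (adjusted p = 0.13) and −0.94 ± 0.22 at 72 h (adjusted p = 0.039). At 72 h 5.21% of all genes were called and 1.07% were called lower in DKO.

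The estimates for *Nr0b1* on spike-in normalized TPM were −0.14, −0.62 and −0.53 in the same order, and none was called (at 72 h 0.523% of all genes were), and the 72 h call was lost without any 1 of the 4 libraries (adjusted p 0.098 to 0.23). As a percent of *Pou5f1* its wild-type means were 6.35%, 9.71% and 8.39% at these times, against DKO means of 4.78%, 6.43% and 5.08%. On deposited TPM the treated DKO libraries overlapped their untreated ones at both times, and all 6 treated wild-type libraries lay above both untreated ones. The wild-type rise was not called in the unpaired fit of all 14 libraries, but it was under some alternatives, pairing of the replicates included. On spike-in normalized TPM 3 of these 6 lay above the untreated wild-type libraries (131.9 and 132.9) and 3 below, the lowest at 84.2 at 144 h, when it was called lower only with the replicates paired (−0.60, adjusted p = 0.014). The spike-in values of the treated DKO libraries lay below their untreated ones (117 and 122) at 24 h (91.9 and 98.9) and at 72 h (78.9 and 95.1), without a call.

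The other 9 factors did not pass the test between the genotypes. No factor was called by limma at 0 h, where 0.812% of all genes were, and 0 of 10 factors had an unadjusted p under 0.05, as 14.9% of all genes did. None was called at 24 h either, where 1.74% of all genes were, and 3 of 10 had an unadjusted p under 0.05 beside 16.0% of all genes. The point estimates lay mostly below 0 on deposited TPM, for 8 of 10 factors at 0 h (median −0.12), 9 of 10 at 24 h (median −0.28) and 8 of 10 at 72 h (median −0.20), but on spike-in normalized TPM for 1, 9 and 1 of 10. Relative to the median gene, 8, 9 and 8 of 10 factors lay below it at 0, 24 and 72 h on either scale. At 72 h *Sox2* was 308 TPM in both wild-type libraries and 248 and 242 TPM in DKO (−0.33 ± 0.11, adjusted p = 0.10), and *Esrrb* 286 and 284 TPM against 245 and 198 TPM (−0.37 ± 0.14, adjusted p = 0.14), each without overlap.

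The difference of the responses was tested directly. For no factor did the DKO response differ from the wild-type response by limma, at 24 or at 72 h, where 0.0% of all genes were called, and 0 of 10 had an unadjusted p under 0.05 in either test, beside 3.9% and 3.63% of all genes. The estimates at 24 h were −0.61 ± 0.30 for *Prdm14*, −0.56 ± 0.33 for *Tbx3*, −0.20 ± 0.15 for *Sox2* and 0.03 ± 0.17 for *Tfcp2l1*. At 72 h they were −0.51 ± 0.30 for *Nr0b1*, −0.22 ± 0.15 for *Sox2* and 0.02 ± 0.28 for *Nanog*. A call in one genotype and not in the other is not a difference between them.

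Of the other 32 genes of the pluripotency network, all of which were tested, 6 rose and 5 fell at 24 h in wild-type cells on deposited TPM, 7 rose and 1 fell at 72 h, and 8 rose and 2 fell at 144 h. Over all genes 33.3%, 27.2% and 30.1% were called at these times, so the shares called, 11, 8 and 10 of 32, lay near the background. The counts on spike-in normalized TPM were 0 and 1, 0 and 1, and 0 and 17, beside 10.1%, 8.7% and 56.2% of all genes called lower. *Klf4*, a Krüppel-like factor of the naive circuit, had the largest rise at 24 h (69.0 to 190 TPM on average, 1.45 ± 0.20, adjusted p = 0.0005) and at 144 h (182 TPM, 1.39 ± 0.20, adjusted p = 0.0009), and it had point estimates above 0 on the spike-in scale too (1.08 and 0.37, adjusted p = 0.053 and 0.38). *Klf5* (0.69 ± 0.18) and *Mybl2* (0.71 ± 0.11) rose with it at 24 h. *Tdgf1*, the NODAL co-receptor CRIPTO, was 467 TPM at 0 h and 881 TPM at 144 h (0.91 ± 0.13, adjusted p = 0.00091, but −0.11 on the spike-in scale). *Dppa3*, a naive and germline marker, fell from 18.0 to 1.25 TPM at 144 h (−2.89 ± 0.90, adjusted p = 0.035, and −3.87 on the spike-in scale), and *Lin28b* (−0.88 ± 0.19) fell at 24 h.

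In DKO the same list had 5 rises and 4 falls at 24 h and 7 rises and 5 falls at 72 h on deposited TPM, beside 28.2% and 28.9% of all genes called, against 0 and 10 and 0 and 3 on spike-in normalized TPM, where 21.8% and 3.12% of all genes were called lower. At 72 h *Klf2* (−0.91 ± 0.15, adjusted p = 0.0026), *Fgf4* (−0.82 ± 0.12, adjusted p = 0.0015) and *Tcl1* (−0.79 ± 0.12, adjusted p = 0.0015) fell, and *Il6st*, which encodes the LIF co-receptor gp130 (0.93 ± 0.15), *Klf4* (0.78 ± 0.20) and *Tdgf1* (0.75 ± 0.13) rose, of which the 3 rises did not pass the test on the spike-in scale. Between the genotypes at 72 h 3 of the 32 genes were lower in DKO and 0 higher on deposited TPM, where 1.07% and 4.14% of all genes were, namely *Mycn* (−1.29 ± 0.28, adjusted p = 0.031), *Fgf4* (−0.86 ± 0.12, adjusted p = 0.0088) and *Tcl1* (−0.68 ± 0.12, adjusted p = 0.016), and 0 were called on spike-in normalized TPM, where 0.523% of all genes were.

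Among 14 genes commonly described as targets of OCT4, SOX2 and NANOG, *Lefty1* and *Lefty2*, inhibitors of NODAL, went both ways with time. *Lefty2* was 34.8 TPM at 0 h, 8.77 TPM at 24 h and 116 TPM at 144 h in wild-type cells (−1.85 ± 0.15, adjusted p = 5.4e-05, then 1.72 ± 0.15, adjusted p = 0.00011), with the same direction on the spike-in scale (−2.26 and 0.72). *Lefty1* fell and rose with it (−1.65 ± 0.54 and 1.90 ± 0.54), and its 144 h rise did not pass the test on the spike-in scale (0.90, adjusted p = 0.15). Between the genotypes *Lefty2* was called higher in DKO at 72 h (1.90 ± 0.15, adjusted p = 0.00084, and 2.32 on the spike-in scale) and at 24 h (1.67 ± 0.15, adjusted p = 0.0022, and 1.80 on the spike-in scale), and also at 0 h (0.81 ± 0.15, adjusted p = 0.046), where it was not called on the spike-in scale (1.11, adjusted p = 0.28). *Spp1*, which encodes osteopontin, fell at 24, 72 and 144 h in wild-type cells (526 TPM at 0 h and 199 TPM at 144 h, −1.40 ± 0.12, adjusted p = 0.0001). Over the list 1 gene rose and 4 fell at 24 h on deposited TPM, beside 17.6% and 15.7% of all genes, and 4 rose and 1 fell at 144 h, beside 17.4% and 12.7%. On spike-in normalized TPM 0 rose and 2 fell at 24 h, beside 1.33% and 10.1% of all genes, and 1 rose and 7 fell at 144 h, beside 0.523% and 56.2%, so the falls at 144 h lay near the background.

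The formative and primed genes, which mark the exit from naive pluripotency, had 6 rises and 0 falls among 11 tested at 144 h in wild-type cells on deposited TPM, where 17.4% of all genes were called higher, and 3 rises and 3 falls on spike-in normalized TPM, where 0.523% were called higher and 56.2% lower. At 24 h the same list had 1 rise (*Otx2*, 0.74 ± 0.22) and 4 falls on deposited TPM, beside 17.6% and 15.7% of all genes. On that scale *Lef1* was at −1.66 ± 0.21 and *Dnmt3a*, a de novo DNA methyltransferase gene, at −1.08 ± 0.22. On spike-in normalized TPM the list had 0 rises and 4 falls, beside 1.33% and 10.1% of all genes. In DKO at 24 h the list had 0 rises and 2 falls on deposited TPM, beside 13.2% and 15.1% of all genes. At 144 h *Lef1* (2.02 ± 0.21, adjusted p = 0.00024), *Pou3f1* (1.84 ± 0.33, adjusted p = 0.0027) and *Otx2* (1.69 ± 0.22, adjusted p = 0.00062) rose, and each was higher on the spike-in scale too (1.04, 0.95 and 0.74, adjusted p = 0.01, 0.024 and 0.044). In wild-type cells the summed level of the list was 627 to 668 TPM at 0 h, 706 to 865 TPM at 72 h and 912 to 952 TPM at 144 h. In DKO it was 581 to 608 TPM at 0 h and 661 to 676 TPM at 72 h. At DKO 72 h *Otx2* (1.13 ± 0.22, adjusted p = 0.005), *Tcf15* (1.05 ± 0.23, adjusted p = 0.0085) and *Lef1* (0.77 ± 0.21, adjusted p = 0.024) were called higher on deposited TPM, beside 18.8% of all genes. These rises did not pass the test on the spike-in scale. The part of this list in the changes of the 10 factors was not tested. In both genotypes at 24 h the neuroectoderm sum was at its lowest, 28.2 to 35.2 TPM. Most of this sum was *Tubb3*, with means of 72.7 TPM at 0 h and 26.0 TPM at 24 h in wild-type cells and 65.1 and 23.1 TPM in DKO. The trophectoderm sum was 29.3 to 82.5 TPM, the mesendoderm sum 1.54 to 3.51 TPM and the fibroblast marker sum 7.90 to 22.1 TPM in all libraries, the latter 10.9 to 12.3 TPM in wild-type cells and 17.2 to 22.1 TPM in DKO at 0 h.

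Most relatives of the factors were lower than the factor itself, *Prdm14* excepted. Among 14 POU genes other than *Pou5f1* the highest mean over all libraries was 46.8 TPM, of the octamer factor gene *Pou2f1*, and among 18 SOX genes other than *Sox2* it was 26.5 TPM, of *Sox12*. The 4 relatives of *Esrrb*, *Nr5a2* and *Nr0b1* were led by *Esrra* with 10.6 TPM, and *Nr0b2* and *Esrrg* reached at most 0.0975 and 0.0749 TPM. *Ubp1* (52.6 TPM) led the 12 relatives of *Tfcp2l1* and *Prdm14*, and *Sall1* (80.4 TPM) the 13 of *Tbx3* and *Sall4*. *Prdm4* (34.5 TPM) and *Prdm2* (29.7 TPM) were above *Prdm14* in all 14 libraries. The paralogue *Tfcp2* rose at 24 h in wild-type cells (1.28 ± 0.17, adjusted p = 0.00045) and in DKO (1.27 ± 0.17, adjusted p = 0.00062) on deposited TPM, with 0.96 and 0.78 and no call on the spike-in scale.

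Across the 14 libraries the log2 TPM of *Tfcp2l1* and *Tbx3* were the most alike among pairs of the 10 factors (Pearson r = 0.83), followed by *Sox2* with *Nr5a2* (r = 0.81) and *Sox2* with *Esrrb* (r = 0.79), and *Nanog* with *Nr5a2* were the most unlike (r = −0.42). Over 10919 genes searched, the one most like *Sox2* was *Pim1*, a kinase gene (r = 0.96), like *Nanog* *Elf3* (r = 0.92), like *Nr0b1* *Jup*, which encodes plakoglobin (r = 0.97), and like *Pou5f1* *Zfp428* (r = 0.93). For *Esrrb* it was *Tlnrd1* (r = 0.94), for *Tfcp2l1* *Lonrf1* (r = 0.93), for *Tbx3* *Fez2* (r = 0.93), for *Nr5a2* *Slc17a9* (r = 0.93), for *Sall4* *Mkl2* (r = 0.95) and for *Prdm14* *Dclre1c* (r = 0.80). The mean of the 10 factors was most like *Tjap1* (r = 0.96). The 14 points fall into 7 groups and share genotype, time and library scale, so these values are a description with no test.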

How the data were processed

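Total RNA from E14 ES cells was spiked with ERCC RNA, depleted of ribosomal RNA and sequenced paired-end. Per the labels, the authors trimmed reads with cutadapt 2.4, aligned them with STAR 2.7.3a to mm10 and quantified them with StringTie 2.0 (GENCODE VM19, per the paper's methods). The deposited values are TPM summing to 1000000 per library, with no ERCC entry, and no columns were left out. TPM keep no read counts, so depth and counting error are unknown. Gene entries were summed per identifier. A pseudocount of 1 was added before taking log2, and the 15878 genes whose mean reached 1 TPM were fitted with all 14 libraries in 7 groups, in limma 3.58.1 (R 4.3.3, empirical Bayes with trend), adjusted by Benjamini-Hochberg over all genes, and called at an adjusted p under 0.05. The authors used DESeq2, which needs counts. Fold changes on this scale understate those of low genes. The fit was tested on simulated data.

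Spike-in normalized TPM were the deposited TPM times 1 factor per library, taken from 1999 entries of the study's supplementary table of normalized TPM. It was an alternative scale here, since 1 factor moves all genes of a library together. The study states that the time points of a replicate were processed in parallel. The replicate differences of pairs of groups correlated at over 0.1 in 3 of 3 pairs within DKO (0.247 to 0.405), 5 of 6 within wild type (0.068 to 0.461) and 2 of 12 between genotypes (−0.553 to 0.144), so numbers were taken to pair libraries within a genotype. The study says of its experiments in general that they were repeated independently and calls its replicates biological, and the labels do not say how these libraries were split into cultures. P-values measure the spread between these libraries.

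The 10 genes and the gene lists were chosen with earlier results of these data known. The text names the 10 genes, at most the 3 largest rises and falls of a list among called genes, the genes most like each factor, *Tet1* and *Tet2*. *Prdm4* and *Prdm2* were chosen after their values were seen, and the relatives are the highest of each family.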

Additional observations from a re-analysis of the deposited data

How the results depend on the processing

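Of 110 results (10 factors in 11 comparisons) 15 were called on deposited TPM. None of these 15 changed sign under a pseudocount of 0.1, a filter at 5 TPM, no filter, median centring, only the compared groups, no trend, either replicate block or the loss of 1 library. Among all 110 the sign changed for 8 under median centring and for 36 without some 1 library, and for 0 under the others (over 80 results for the block within genotype). On the spike-in scale it changed for 53 of 110, of which 7 were called on deposited TPM (*Nr5a2* at wild-type 144 h on both scales) and 3 on the spike-in scale alone. These 10 were, at wild-type 144 h against 0 h, *Sox2* (−0.38), *Pou5f1* (−1.02), *Tbx3* (−0.84), *Nr5a2* (−0.70) and *Sall4* (−0.83), at wild-type 72 h *Sox2* (−0.0661), and at DKO 24 h *Sox2* (−0.20), *Esrrb* (−0.11), *Tfcp2l1* (−0.021) and *Nr5a2* (−0.21). *Esrrb* (−0.63) and *Nr0b1* (−0.60) at wild-type 144 h had changed sign on the spike-in scale too, and were called there only with a replicate block within genotype, which was added after seeing the data, as were the medians of all genes on that scale without 1 library. By construction 1 factor per library shifts all genes.

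The number of factors called at wild-type 24 h (4) was 0 on the spike-in scale, 1 with the block added to it, 3 with the compared groups only (*Esrrb* lost, adjusted p = 0.055) and 3 to 4 without 1 library. At wild-type 72 h (2) it was 1 on the spike-in scale with or without the block, under median centring, with no filter and with the compared groups only, and 0 to 2 without 1 library. At wild-type 144 h (3) it was 6 on the spike-in scale, 5 with the replicate block within genotype, 8 with both (beside 72.7% of all genes), and 1 to 2 without 1 library. There the call of *Nanog* was lost with no filter (adjusted p = 0.11), no trend (0.052) and the replicate block (0.055), that of *Nr5a2* under median centring (0.11) and with the compared groups only (0.051), *Esrrb* was gained with a filter at 5 TPM (0.048) and the replicate block (0.041), and *Nr0b1* with the compared groups only (0.021). Between 72 and 144 h it was 0, and 2 (*Tbx3* and *Sall4*) with both, beside 27.8% of all genes. At DKO 24 h (4) it was 3 on the spike-in scale with the block, 2 on that scale without it, under median centring and with no filter, 0 with the compared groups only, and 1 to 2 without 1 library. At DKO 72 h (1) it was 0 on the spike-in scale and 1 with the block added to it, 2 with the block within genotype and 0 to 1 without 1 library. For DKO against wild type at 72 h (1, *Nr0b1*) it was 0 on the spike-in scale, with no filter, with the compared groups only, with no trend, with a replicate block on the numbers across genotypes and without any 1 library. The share of all genes called changed with the settings too. At wild-type 72 h (27.2%) it was 9.47% on the spike-in scale and 31.8% with the block added. It was 27.9% there under median centring, 9.67% with no filter and 13.8% with the compared groups only. At DKO 24 h (28.2%) it was 22.3%, 44.7%, 28.6%, 9.87% and 7.78% in the same order. For DKO against wild type at 72 h (5.21%) it was 1.35% with no filter and 0.0315% with the compared groups only. The cause of these changes was not tested. The other comparisons had 0 calls under all alternatives, the replicate block included. Each group has 2 libraries, and their depth is unknown.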
